A study of Mus musculus with 12 samples.

Results

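The genes described here build and supply the DNA replication fork: the subunits of DNA polymerases alpha, delta and epsilon, the sliding clamp and its loader, the enzymes of the lagging strand, the single-strand binding protein RPA, chromatin assembly and tethering factors, topoisomerases, and the enzymes that supply deoxyribonucleotides. They are a list of 37 named genes, matched by symbol to the 56691 mouse gene IDs of the count tables, and all 37 were found. RNA was measured by 3′ mRNA sequencing in the mouse embryonic stem cell line R1, which is male and of 129/Sv background, in 4 groups of 3 libraries. The primed group is the untreated day 0 culture, grown on gelatin in medium with serum and LIF; the name is the label's and was not tested as a state. The 2i group had 6 days of 2i, in common use a blockade of MEK and GSK3 that brings such cells towards a naive state. The other groups had 6 days of 2i together with 25 or 50 µM of an inhibitor of MRE11, a nuclease that acts at DNA breaks and at stalled forks. The sources used here name neither the inhibitor nor a vehicle for the 2i group. No group stayed in serum and LIF to day 6, so 2i cannot be told apart from time in culture or a change of medium. All groups are 1 cell line. Whether replicate libraries came from separate cultures is not stated in the labels, and the tests therefore measure differences against a spread that may be technical only.

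At a fork, polymerase alpha with its primase lays down short RNA-DNA primers, polymerase epsilon extends the leading strand and polymerase delta the lagging strand. The ring-shaped clamp PCNA, opened and closed around DNA by the loader RFC, holds the polymerases on their template, and RPA coats the unwound single strands. FEN1, DNA2 and RNase H2 remove primer RNA and flaps, LIG1 seals the nicks, and the histone chaperone CAF-1 places new nucleosomes behind the fork. Ribonucleotide reductase (RRM1 with RRM2) makes the deoxyribonucleotides, while TYMS, TK1 and DUT set the supply of thymidine nucleotides and keep uracil out of DNA. Many of these genes are known targets of the E2F factors, some of which drive transcription at the passage from G1 into S phase. Mouse embryonic stem cells are known for a short G1.

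The promoter table of RefSeq (GRCm38.p6) held 33 of the 37 genes; Pole, Prim2, Rfc2 and Rnaseh2b had no entry. Each promoter was read from 250 bases before to 50 bases after the transcription start. For genes with several entries the one nearest the annotated start was used. For Pole4 the entry used lies inside the annotated gene (chr6:82618992-82705365, minus strand), far from its annotated start at base 82705365. An E2F site, searched on both strands as TTTCCCGC, TTTCGCGC, TTTGCCGC or TTTGGCGC, lay in 6 of the 33 promoters (18.2%) and in 2.26% of all 32851 promoters in the table. These 6 are shown because polymerase subunits and a clamp loader subunit carry them; capitals mark the match or its reverse complement, and each stretch runs 5′ to 3′ on the gene's own strand.
Pola1 (chrX:93632275-93632304, minus strand): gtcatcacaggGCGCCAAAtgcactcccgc
Pold1 (chr7:44548766-44548795, minus strand): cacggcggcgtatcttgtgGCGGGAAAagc
Pold3 (chr7:100121467-100121496, minus strand): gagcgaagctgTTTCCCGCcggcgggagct
Pole2 (chr12:69228162-69228191, minus strand): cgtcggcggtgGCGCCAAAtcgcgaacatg
Pole4 (chr6:82652890-82652919, minus strand): ctctacccggcGCGGGAAAggggccgaaat
Rfc3 (chr5:151651195-151651224, minus strand): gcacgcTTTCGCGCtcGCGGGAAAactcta

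Of these 6, Pold1 and Rfc3 were higher at 50 µM than in 2i alone while in 2i against primed cells Pole4 was higher and Pold3 was lower, with values below. The Rfc3 promoter held 2 such matches, starting 10 bases before the transcription start and at its first base. Other letters searched were CCAAT, found in 15 of 33 promoters (45.5%, against 37.4% of all), and the GC box GGGCGG, found in 23 (69.7%, against 35.7% of all); matches of these motifs can share bases. The 120 bases before the start are shown for 5 of the 6 genes that were higher at 50 µM than in 2i, those with a single promoter in the table, and for Rnaseh2c, which was lower, with any matches in capitals.
Pold1 (chr7:44548816-44548935, minus strand): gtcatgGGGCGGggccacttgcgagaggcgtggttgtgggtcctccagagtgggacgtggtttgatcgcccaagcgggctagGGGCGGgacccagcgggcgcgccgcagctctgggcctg
Rfc3 (chr5:151651209-151651328, minus strand): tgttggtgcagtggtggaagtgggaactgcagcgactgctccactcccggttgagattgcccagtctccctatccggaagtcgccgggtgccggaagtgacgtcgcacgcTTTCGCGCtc
Rfc4 (chr16:23127731-23127850, minus strand): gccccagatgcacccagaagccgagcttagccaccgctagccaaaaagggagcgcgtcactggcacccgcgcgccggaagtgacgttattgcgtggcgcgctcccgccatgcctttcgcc
Chaf1b (chr16:93883781-93883900, plus strand): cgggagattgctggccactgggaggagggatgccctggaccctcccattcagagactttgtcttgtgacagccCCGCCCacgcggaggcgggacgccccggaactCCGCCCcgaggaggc
Rrm2 (chr12:24708134-24708253, plus strand): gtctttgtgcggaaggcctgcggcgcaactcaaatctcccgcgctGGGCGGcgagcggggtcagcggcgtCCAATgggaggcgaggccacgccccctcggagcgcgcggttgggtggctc
Rnaseh2c (chr19:5601753-5601872, plus strand): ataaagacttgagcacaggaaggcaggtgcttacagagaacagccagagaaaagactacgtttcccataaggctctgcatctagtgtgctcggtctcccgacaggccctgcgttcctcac
In the stretches shown, Pold1 and Chaf1b each held 2 GC boxes, Rrm2 held 1 GC box and 1 CCAAT box, Rfc3 held an E2F match, and Rfc4 and Rnaseh2c held none of the 3. A match is a description of letters, and binding was not measured.

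Library totals ranged from 5894561 to 7060126 counts, and all 37 genes passed the low-count filter. A gene had between 8 counts (Pold4, the smallest subunit of polymerase delta) and 9462 counts (Top2a) in a library, and at least 90 in every library if Pold4 is left out. Levels below are CPM, a gene's count relative to its library's total after TMM scaling, not divided by gene length, so that levels are compared within a gene only. Values are listed as replicates 1, 2 and 3, and a change is the log2 fold change ± SE of edgeR's quasi-likelihood test. The threshold for a call was 0.05 for the p adjusted by Benjamini-Hochberg over all 13230 genes tested. The median over the 37 genes of the spread within a group was a coefficient of variation of 8.36%, from 2.87% for Rpa1 to 30.3% for Rpa3.

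Summed over 10 embryonic stem cell markers, levels were 4334 to 5056 CPM in primed libraries, 4920 to 5178 in 2i, 4967 to 5234 at 25 µM and 4799 to 5470 at 50 µM, and none of the 10 was at 0. The sum of 10 fibroblast and feeder markers was lower in each group in turn, from 32.96 to 76.46 CPM in primed libraries to 13.5 to 18.1 in 2i, 7.37 to 8.52 at 25 µM and 3.28 to 5.504 at 50 µM. Of those, Dcn, Postn and Lum were at 0 in primed cells, Twist2, Col3a1 and Lum in 2i, Dcn and Col3a1 at 25 µM, and Twist2, Dcn, Postn and Lum at 50 µM. The part of these cells in the results below was not tested. The summed level of 22 G2/M genes overlapped between the groups, at 4882 to 5107 CPM in primed cells, 4607 to 4993 in 2i, 4794 to 5356 at 25 µM and 4778 to 5320 at 50 µM. In bulk RNA, fewer cells in S phase and less RNA per cell cannot be told apart.

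**Figure D1:**
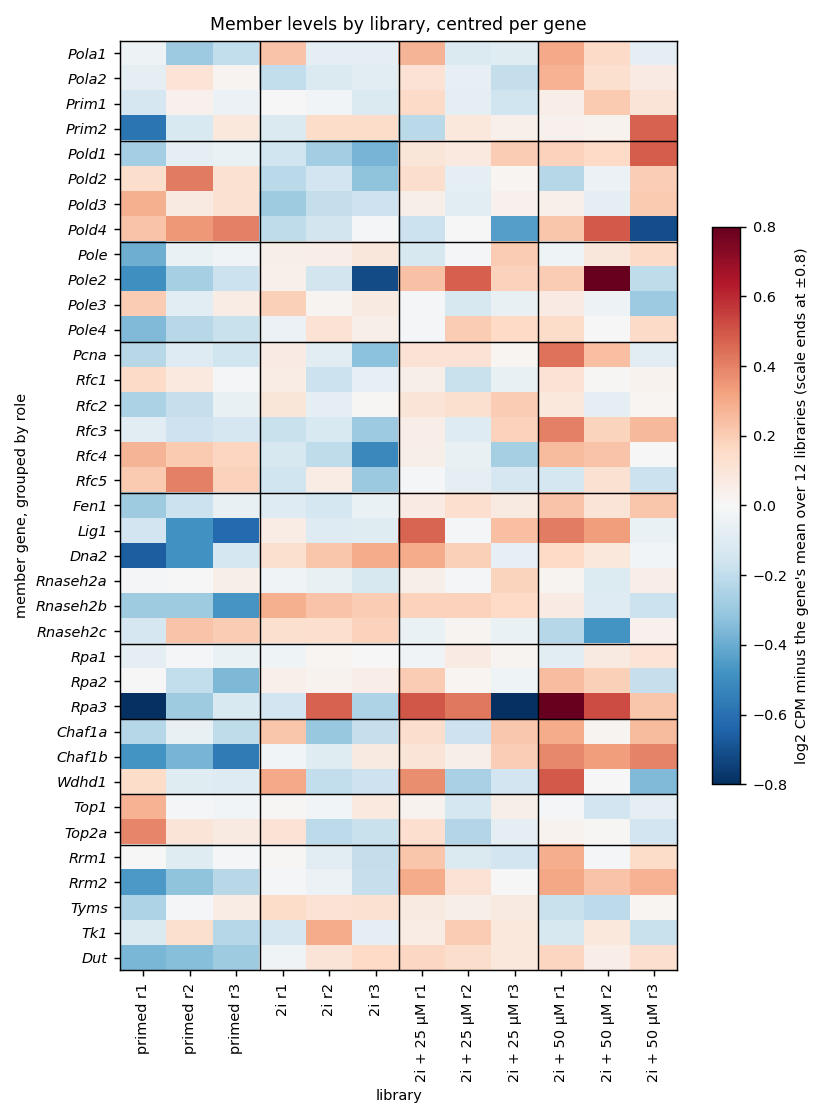
Level of each of the 37 genes (rows, grouped by role) in each of the 12 libraries (columns), as log2 CPM minus the gene's mean over the libraries; colours end at ±0.8, and lines separate roles and groups. Chaf1b and Rrm2 pass from blue in primed libraries to red at 50 µM, Pold2 and Rfc5 are red mainly in primed libraries, and Rpa3 differs between libraries of one group.

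After 6 days of 2i, 6 of the 37 genes were higher than in primed cells and 4 were lower. Subunits of polymerase delta (Pold2 and Pold3) and of the clamp loader (Rfc4 and Rfc5) fell by 0.38 to 0.49 on the log2 scale. Dna2 and Rnaseh2b, which act on lagging-strand flaps and primers, the chromatin assembly subunit Chaf1b, the nucleotide enzymes Rrm2 and Dut, and the small epsilon subunit Pole4 rose by 0.25 to 0.63. The share called, 27.0% of the 37, was below the 40.4% of all genes called in this comparison (20.0% higher and 20.4% lower). The median change was 0.05, against −0.01 over all genes. Primed and 2i libraries did not overlap for 10 genes that were higher and 7 that were lower, where 24.6% and 25.8% of all genes did not overlap in these directions. With the replicate number as a block, which pairs these libraries, 16 were called, 11 higher and 5 lower, against 47.6% of all genes; all 10 were kept, and Lig1, Pola1, Pole, Rpa2 and Tyms (higher) and Top2a (lower) were added.

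With 25 µM inhibitor no gene of the 37 passed the threshold against 2i alone, where 0.937% of all genes did. At an unadjusted p below 0.05, 887 of all 13230 genes were higher and 842 lower. Among the 37, 7 were higher at that p and none lower: Pold1, Pold2, Pold3, Pole2, Rfc3, Fen1 and Rrm2. Their log2 changes ran from 0.19 for Fen1 to 0.54 for Pole2, and the lowest edgeR adjusted p was 0.0826, for Pold1. DESeq2 and limma voom called 0 as well, with 6 and 8 genes at an unadjusted p below 0.05, all higher; both sets held Lig1, which edgeR's did not. Pold1 was called with the replicate block (0.39 ± 0.09, edgeR adjusted p = 0.00876), in a fit that called 4.74% of all genes. Over all 37, 26 changes were positive and 11 negative, with a median of 0.05 against 0.00 over all genes (6724 positive and 6500 negative). The libraries of 25 µM and 2i did not overlap for 9 genes upwards and 4 downwards, against 10.2% and 9.25% of all genes.

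With 50 µM inhibitor 6 genes were higher than in 2i alone and 2 were lower. The catalytic delta subunit Pold1, the clamp loader subunits Rfc3 and Rfc4, the flap nuclease Fen1, the chromatin assembly subunit Chaf1b and the reductase subunit Rrm2 rose by 0.28 to 0.55 on the log2 scale. The RNase H2 accessory subunits Rnaseh2b and Rnaseh2c fell by 0.30 and 0.36. Higher calls made up 16.2% of the 37, against 7.01% of all genes, and lower calls 5.41%, against 8.07% (15.1% of all genes in either direction). Of the 37 changes 29 were positive, with a median of 0.11, while over all genes the median was 0.01. The libraries did not overlap for 9 genes upwards and 3 downwards, against 16.1% and 16.4% of all genes. Pold1, Rfc3 and Chaf1b were called under every one of the 12 alternatives run, and the other 5 were lost in at least 1. The count was 3 without 2i replicate 3, where 9.46% of all genes were called, and 4 without 50 µM replicate 1 (10.1%). It was 5 without 2i replicate 2, where 1217 of 13529 genes were called. With the replicate block 16 were called, 13 higher and 3 lower, against 24.5% of all genes, the 8 above among them.

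The test for a graded change with dose over the 9 six-day libraries called the same 8 genes, 6 upwards and 2 downwards, where 15.5% of 12623 genes were called (7.06% upwards and 8.40% downwards). Slopes per 25 µM were 0.27 ± 0.05 for Pold1, 0.23 ± 0.05 for Rfc3, 0.21 ± 0.06 for Rfc4, 0.19 ± 0.05 for Chaf1b, 0.17 ± 0.04 for Rrm2 and 0.14 ± 0.04 for Fen1. They were −0.15 ± 0.04 for Rnaseh2b and −0.18 ± 0.06 for Rnaseh2c. The edgeR adjusted p-values lay between 0.0018 (Pold1) and 0.0297 (Fen1). This test uses the libraries of the 50 µM comparison and is no independent support for it. The count was 4 without 2i replicate 3, where 10.1% of all genes were called, and 5 without 50 µM replicate 1 (11.8%). With the replicate block it was 16, where 25.1% of all genes were called. Pold1, Rfc3 and Chaf1b were called under all 14 alternatives. Rfc4 was lost without 2i replicate 3 (edgeR adjusted p = 0.114), 50 µM replicate 1 (0.0887) or 2 (0.0772), and Rrm2 without 2i replicate 3 (0.0694). Fen1 was lost without 2i replicate 1 (edgeR adjusted p = 0.0669), 2 (0.107) or 3 (0.0612) and without 50 µM replicate 1 (0.0819) or 3 (0.0679). Rnaseh2b was lost without 50 µM replicate 2 (edgeR adjusted p = 0.0797) or 3 (0.0937) and without the low-count filter (0.0541). Rnaseh2c was lost without 2i replicate 2 (edgeR adjusted p = 0.0689) or 3 (0.0867) and without 50 µM replicate 1 (0.0646) or 2 (0.14). Between the doses, 50 against 25 µM, none of the 37 was called, where 1.16% of all genes were, and DESeq2, limma voom and the replicate block (4.10% of all genes) called 0 too. At an unadjusted p below 0.05, Chaf1b (0.25 ± 0.09) and Rfc3 (0.23 ± 0.10) were higher and Rnaseh2b (−0.24 ± 0.09) was lower at 50 µM. Over all 13230 genes tested between the doses, 619 were higher and 975 lower at that p. The lowest edgeR adjusted p among the 37 was 0.221, for Chaf1b.

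**Figure D2:**
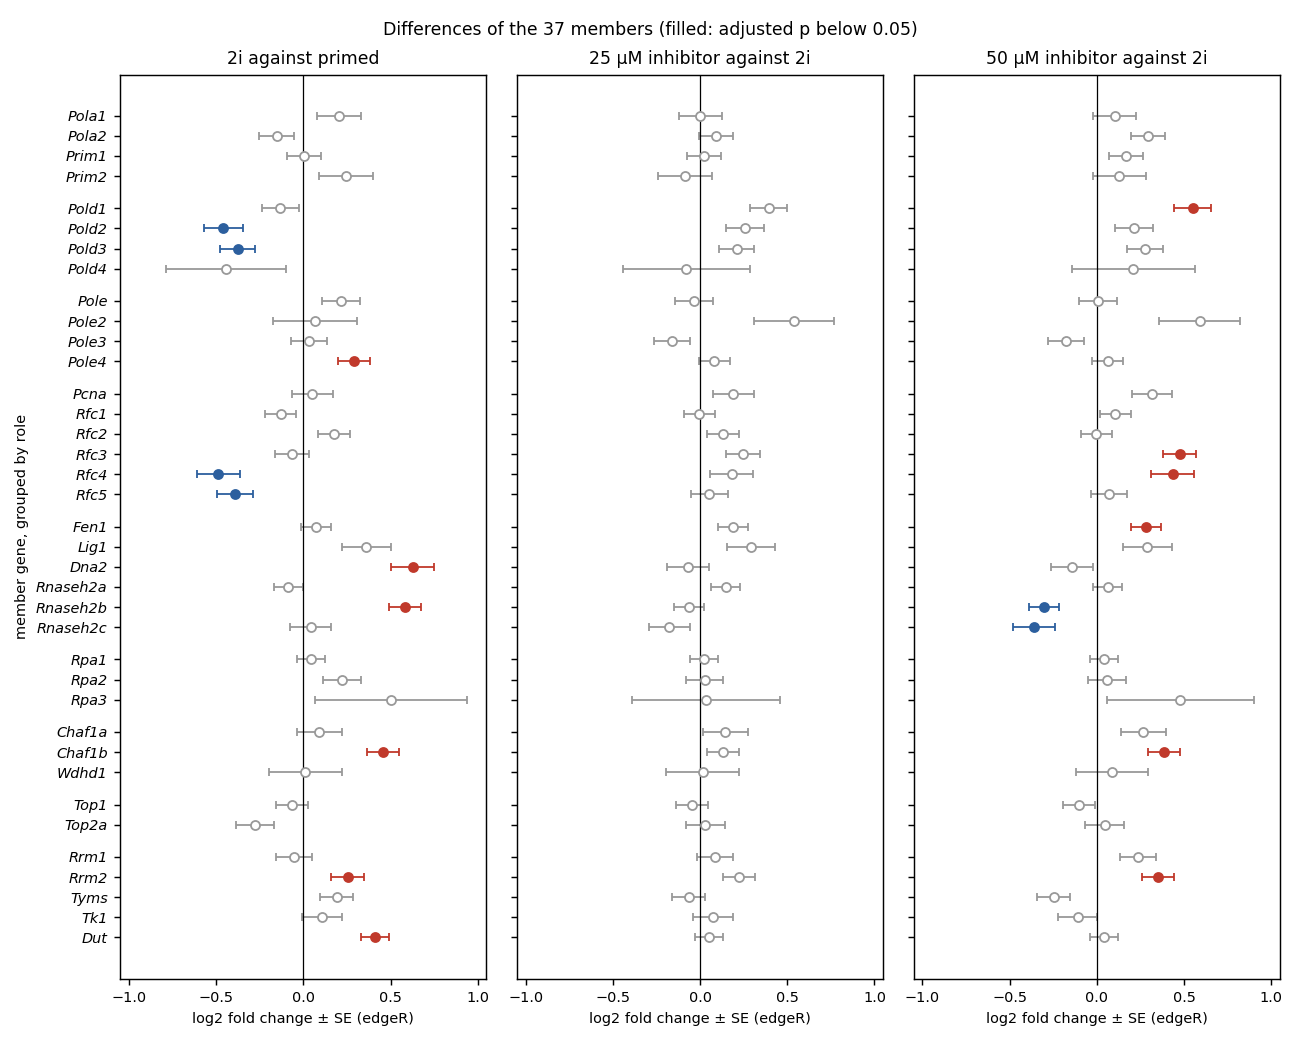
Log2 fold change (x axis) ± SE from edgeR for each of the 37 genes (y axis, grouped by role) in 2i against primed, 25 µM against 2i and 50 µM against 2i; filled points have an adjusted p below 0.05, red higher and blue lower. The left panel has 10 filled points, the middle panel none and the right panel 8, and Rfc4 and Rnaseh2b lie on opposite sides of 0 in the left and right panels.

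The polymerase alpha-primase complex, which starts every new strand, did not have a called subunit in 2i or at either dose against 2i in the fit without the replicate block. Pola1, the catalytic subunit, ranged from 56.5 to 85.3 CPM over the 12 libraries, and its group means, in the order primed, 2i, 25 µM and 50 µM from low to high, spanned a factor of 1.24. It was called at 50 µM against primed (0.31 ± 0.12, edgeR adjusted p = 0.0492) and was lost without primed replicate 2 (0.168) or 3 (0.115), without 50 µM replicate 1 (0.237) or 2 (0.0947), and with RLE factors, DESeq2 or limma voom, in a range of 0.00263 to 0.237 over the 12 alternatives. Pola2, the accessory subunit that carries regulatory phosphorylation, was at 63.6, 67.5 and 68.9 CPM in 2i and at 88.6, 79.8 and 76.6 CPM at 50 µM, without overlap. Its difference of 0.29 ± 0.10 had an edgeR adjusted p of 0.0502, and 0.0138 with the replicate block. The primase subunits Prim1, which makes the RNA primer, and Prim2 changed by 0.17 ± 0.10 and 0.13 ± 0.15 at 50 µM against 2i (edgeR adjusted p = 0.26 and 0.617).

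In polymerase delta, all 4 subunits had negative changes in 2i against primed and all 4 had positive changes at 50 µM against 2i. Over all genes, 6524 changes were positive and 6706 negative in 2i, and 6771 and 6453 at 50 µM. Both comparisons use the 2i libraries. Which subunits were called differed between the comparisons, and a difference between subunits was not tested. Pold1 (ENSMUSG00000038644, chr7:44532746-44548849), which holds the polymerase and proofreading sites, was at 55.3, 63.4 and 64.3 CPM in primed cells and 59.9, 55.2 and 51.8 CPM in 2i. It was at 71.7, 70.6 and 77.1 CPM at 25 µM and 76.1, 74.7 and 93.6 CPM at 50 µM. Every inhibitor library lay above every primed and every 2i library. Against 2i, 50 µM gave a 1.46-fold rise (0.55 ± 0.11, edgeR adjusted p = 0.00121), and 2i against primed was −0.13 ± 0.11 (edgeR adjusted p = 0.35). Against primed it was called at 50 µM (0.42 ± 0.11, edgeR adjusted p = 0.00262), under all 12 alternatives, and at 25 µM (0.26 ± 0.11, 0.0496), where the call was lost without any 1 of the 6 libraries (0.0636 to 0.207), without the low-count filter, with RLE factors and with DESeq2.

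Pold2 (ENSMUSG00000020471, chr11:5872180-5878292), which links the catalytic subunit to the others, fell from 96.0, 116 and 94.9 CPM in primed cells to 74.9, 78.5 and 69.9 CPM in 2i, without overlap (−0.46 ± 0.11, edgeR adjusted p = 0.00197). Pold3 (ENSMUSG00000030726, chr7:100082111-100121565), the PCNA-binding subunit, fell from 77.2, 66.7 and 69.2 to 52.2, 55.5 and 56.6 CPM, again without overlap (−0.38 ± 0.10, edgeR adjusted p = 0.00444). Both falls were called under all 12 alternatives. With inhibitor Pold2 stood at 96.2, 82.8 and 88.0 CPM at 25 µM and 74.4, 84.4 and 100.0 CPM at 50 µM. Pold3 stood at 65.6, 59.6 and 64.9 CPM at 25 µM and 65.4, 60.3 and 73.5 CPM at 50 µM, above every 2i library at both doses. Neither passed the test at 50 µM against 2i (Pold2 0.21 ± 0.11, edgeR adjusted p = 0.207; Pold3 0.28 ± 0.10, 0.0673), and Pold3 was called there with the replicate block (0.0212). Pold4 had 8 to 20 counts per library and gave no called change (−0.44 ± 0.35 in 2i against primed and 0.21 ± 0.35 at 50 µM against 2i).

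In polymerase epsilon, the leading-strand enzyme, the subunit called in 2i was the histone-fold subunit Pole4 (ENSMUSG00000030042, chr6:82618992-82705365). Pole4 was at 116, 127 and 131 CPM in primed cells and 143, 160.3 and 153 CPM in 2i, without overlap, a 1.22-fold rise (0.29 ± 0.09, edgeR adjusted p = 0.0127). The call was lost without primed replicate 1 (0.0613) and without 2i replicate 2 (0.0546), within a range of 0.0014 to 0.0613 over the alternatives. Pole4 stayed at that level with inhibitor, at 147, 171 and 166 CPM and at 164, 148 and 165 CPM. Its partner Pole3, which also serves in chromatin remodelling, lay between 66.7 and 93.9 CPM in all libraries and was called in no comparison. The catalytic subunit Pole was at 53.6, 67.9 and 68.9 CPM in primed cells and 72.8, 73.1 and 74.9 CPM in 2i (0.21 ± 0.11, edgeR adjusted p = 0.126, and 0.0328 with the replicate block).

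Pole2, the second-largest epsilon subunit and part of the origin-bound form of the enzyme, was at 16.9, 19.8 and 21.2 CPM in primed cells and 24.6, 21.5 and 14.5 CPM in 2i. With inhibitor it was at 28.1, 33.2 and 27.1 CPM at 25 µM and 27.5, 42.8 and 20.7 CPM at 50 µM. All 25 µM libraries lay above all 2i libraries, while the 50 µM libraries overlapped them. The differences of 0.54 ± 0.23 and 0.59 ± 0.23 had edgeR adjusted p-values of 0.339 and 0.104, and 0.0267 at 50 µM with the replicate block. Against primed the differences were called (0.61 ± 0.23 at 25 µM and 0.66 ± 0.23 at 50 µM, edgeR adjusted p = 0.0492 and 0.0332). The first was lost without any 1 of its 6 libraries (0.0685 to 0.142), and the second without primed replicate 1 (0.1) or 2 (0.0647) or 50 µM replicate 2 (0.191). Without the low-count filter Pole2 and Pold1 were called at 25 µM against 2i.

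The clamp Pcna, at 92.6, 101 and 96.8 CPM in primed cells and 113, 101 and 86.0 CPM in 2i, did not differ between these groups beyond their spread (0.05 ± 0.12). It was at 117, 117 and 109 CPM at 25 µM and at 146, 127 and 101 CPM at 50 µM, where replicate 3 fell within the 2i range. At 50 µM against 2i the change was 0.32 ± 0.12 (edgeR adjusted p = 0.067, and 0.00588 with the replicate block). Against primed it was called (0.37 ± 0.12, edgeR adjusted p = 0.0127), and the call was lost without 50 µM replicate 1 (0.126), in a range of 0.000637 to 0.126 over the alternatives.

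The 5 subunits of the loader RFC were called in different comparisons, and a difference between subunits was not tested. Rfc3 (ENSMUSG00000033970, chr5:151642756-151651242), a small ATPase subunit, was at 73.7, 69.6 and 71.4 CPM in primed cells and 69.3, 71.7 and 64.0 CPM in 2i. It stood at 81.1, 72.9 and 88.9 CPM at 25 µM and 103, 88.3 and 93.6 CPM at 50 µM, above all 2i libraries at both doses. The 50 µM rise of 1.39-fold (0.47 ± 0.10) had an edgeR adjusted p of 0.0021.

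Rfc4 (ENSMUSG00000022881, chr16:23113943-23127737), another small subunit, fell in 2i and stood higher again with inhibitor. It was at 42.9, 41.2 and 40.04 CPM in primed cells, 32.6, 30.9 and 24.8 CPM in 2i, 36.7, 34.2 and 29.5 CPM at 25 µM and 42.5, 41.6 and 35.5 CPM at 50 µM. The fall in 2i was −0.49 ± 0.12 (edgeR adjusted p = 0.00283) and the 50 µM difference from 2i was 0.43 ± 0.12 (edgeR adjusted p = 0.0211). These 2 comparisons share the 2i libraries, so a low value there gives both. At 50 µM against primed, which does not use them, Rfc4 differed by −0.05 ± 0.12 (edgeR adjusted p = 0.743), and at 25 µM by −0.31 ± 0.12 (0.0466). The 25 µM call was lost without primed replicate 1 (0.103), 2 (0.0761) or 3 (0.0585), without 25 µM replicate 2 (0.0848) or 3 (0.185), without the low-count filter (0.0787) and with DESeq2 (adjusted p = 0.0663), in a range of 0.00984 to 0.185 over the alternatives. The 50 µM call against 2i was lost without 2i replicate 3 (0.112), 50 µM replicate 1 (0.096) and 50 µM replicate 2 (0.0626), and ranged from 0.0017 to 0.112 over the alternatives.

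Rfc5 (ENSMUSG00000029363, chr5:117378103-117389047) fell from 133, 152 and 131 CPM in primed cells to 103, 120.0 and 93.6 CPM in 2i (−0.39 ± 0.10, edgeR adjusted p = 0.00421) and stayed there with inhibitor, at 115, 109 and 105 CPM and at 104, 125 and 102 CPM. All primed libraries lay above all others. The difference from primed was called at 25 µM (−0.34 ± 0.10, edgeR adjusted p = 0.0112) and lost without primed replicate 2 (0.0615). At 50 µM it was −0.32 ± 0.10 (0.0147), lost without primed replicate 2 (0.0839) or 50 µM replicate 3 (0.0506). Rfc2 was at 70.4, 73.8 and 80.4 CPM in primed cells and 90.2, 91.4 and 96.3 CPM at 25 µM, a called difference from primed (0.31 ± 0.09, edgeR adjusted p = 0.00882), and it was not called in 2i (0.18 ± 0.09) or at 50 µM against primed (0.17 ± 0.09). Rfc1, the large subunit, ranged from 226 to 285.5 CPM and was called in no comparison.

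The 3′ ends of Rfc4 and Rfc5 overlap genes on the other strand, Eif4a2 by 186 bases and Wsb2 by at least the 400 bases compared, and the sources used here do not state the strand setting of the counting, so both are uncertain. Eif4a2 changed by 0.10 ± 0.21 in 2i and −0.01 ± 0.21 at 50 µM against 2i, neither called. Wsb2 fell in 2i by 0.63 on the log2 scale (−0.63 ± 0.12, edgeR adjusted p = 0.00027), the direction of Rfc5, and its part in the Rfc5 counts was not tested.

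**Figure D3:**
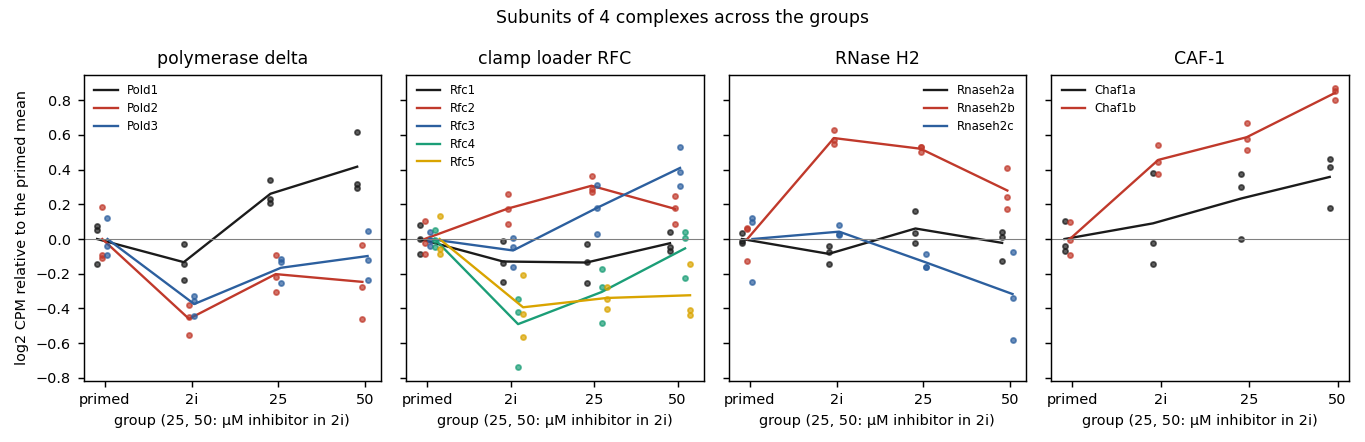
Level of the subunits of polymerase delta, RFC, RNase H2 and CAF-1 in each library (points) as log2 CPM relative to the gene's primed mean (y axis), by group (x axis), with lines through the group means; Pold4 is left out for its low counts. Pold1 and Rfc3 end above 0 and Pold2 and Rfc5 below 0 at 50 µM, Rnaseh2b peaks in 2i, and the group means of Chaf1b go up in the order primed, 2i, 25 µM, 50 µM, where the steps from 2i to 25 µM and from 25 to 50 µM were not called.

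Among the lagging-strand enzymes, Dna2 and Rnaseh2b rose in 2i, Fen1 rose at 50 µM, and Rnaseh2b and Rnaseh2c fell at 50 µM against 2i. Dna2 (ENSMUSG00000036875, chr10:62947026-62974185), a nuclease-helicase that trims long flaps and also resects DNA ends, went from 36.8, 41.5 and 52.7 CPM in primed cells to 63.4, 67.8 and 71.5 CPM in 2i. That 1.55-fold rise, without overlap, was the largest among the 37 genes in this comparison (0.63 ± 0.12, edgeR adjusted p = 0.000268). Dna2 was at 71.4, 66.4 and 55.5 CPM at 25 µM and 64.9, 61.6 and 57.3 CPM at 50 µM, which did not differ from 2i beyond the spread (−0.14 ± 0.12 at 50 µM).

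Rnaseh2b (ENSMUSG00000021932, chr14:62292589-62372992), the RNase H2 subunit that binds PCNA, was at 88.4, 88.3 and 77.6 CPM in primed cells and 131, 126 and 124 CPM in 2i. It was at 122, 123 and 119.9 CPM at 25 µM and 113, 100.2 and 95.7 CPM at 50 µM. Levels at 50 µM lay below every library of 2i and of 25 µM and above every primed library. The rise in 2i was 1.50-fold (0.58 ± 0.09, edgeR adjusted p = 1.59e-05). At 50 µM the fall from 2i was −0.30 ± 0.09 (edgeR adjusted p = 0.0235), and the difference from primed was 0.28 ± 0.09 (0.0146). The fall was lost without 2i replicate 2 (0.0568), 2i replicate 3 (0.0525), 50 µM replicate 2 (0.0736) and 50 µM replicate 3 (0.0697), and ranged from 0.00248 to 0.0736 over the alternatives. The difference from primed was lost without primed replicate 3 (0.0902) or 50 µM replicate 1 (0.116), and ranged from 0.00253 to 0.116.

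Rnaseh2c (ENSMUSG00000024925, chr19:5601873-5607019), which holds the other subunits together, was at 56.4, 72.8 and 71.5 CPM in primed cells and 67.9, 68.2 and 70.7 CPM in 2i. It was at 59.9, 63.1 and 59.8 CPM at 25 µM and 52.9, 44.6 and 63.6 CPM at 50 µM, all below the 2i libraries. The 50 µM difference from 2i was −0.36 ± 0.12 (edgeR adjusted p = 0.044). It was lost without 2i replicate 2 (0.0935), 2i replicate 3 (0.124), 50 µM replicate 1 (0.0878) and 50 µM replicate 2 (0.225), in the fit on these 2 groups alone (0.0505) and with DESeq2 (adjusted p = 0.0522), and ranged from 0.00638 to 0.225 over the alternatives. Its 3′ end overlaps Kat5 on the other strand, which had a change of 0.71 ± 0.25 (566 counts in all, against 4781 for Rnaseh2c; edgeR adjusted p = 0.0603), so Rnaseh2c is uncertain, and the part of Kat5 was not tested. At 50 µM against primed Rnaseh2c was lower too (−0.32 ± 0.12, edgeR adjusted p = 0.0349), a call lost without primed replicate 2 (0.149) or 3 (0.13), 50 µM replicate 1 (0.0697) or 2 (0.235). The catalytic subunit Rnaseh2a ranged from 130.5 to 162 CPM and was called in no comparison. It overlaps Prdx2 on the other strand (16785 counts in all, against 10943 for Rnaseh2a). Prdx2 was higher than in primed cells at 25 µM (0.21 ± 0.08, edgeR adjusted p = 0.0472) and at 50 µM (0.25 ± 0.08, 0.0182). The part of Prdx2 in the Rnaseh2a counts was not tested.

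Fen1 (ENSMUSG00000024742, chr19:10199132-10204169), which cuts flaps ahead of ligation, was at 107.5, 116.5 and 126 CPM in primed cells, 122, 119 and 126.5 CPM in 2i, 137, 144 and 138 CPM at 25 µM, and 153.5, 141 and 153 CPM at 50 µM. All inhibitor libraries lay above all libraries of the other groups. At 50 µM the rise over 2i was 1.22-fold (0.28 ± 0.08, edgeR adjusted p = 0.0276), and over primed 1.28-fold (0.35 ± 0.08, 0.00177). The call against 2i was lost without 2i replicate 1 (0.101), 2 (0.106) or 3 (0.0525), without 50 µM replicate 1 (0.13) or 3 (0.122), without the low-count filter (0.0754) and in the fit on these 2 groups alone (0.0502), and ranged from 0.00434 to 0.13 over the alternatives. At 25 µM against primed Fen1 was called (0.26 ± 0.08, edgeR adjusted p = 0.0165), a call lost without primed replicate 1 (0.0938) or 2 (0.0518) or 25 µM replicate 2 (0.0564). Fen1 overlaps Tmem258 on the other strand, which changed by 0.13 ± 0.10 at 50 µM against 2i (edgeR adjusted p = 0.419).

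Lig1, the ligase that joins Okazaki fragments, was at 655, 520.3 and 472 CPM in primed cells and 759, 676 and 680.1 CPM in 2i, without overlap but short of the threshold (0.36 ± 0.14, edgeR adjusted p = 0.0504, and 0.000839 with the replicate block). DESeq2 and limma voom called it (adjusted p = 0.0454 and 0.0327). It was at 1006, 723 and 859 CPM at 25 µM and 967, 916 and 702 CPM at 50 µM. Against primed both doses were called, under all 12 alternatives (0.65 ± 0.14 at each, edgeR adjusted p = 0.00121 at each). Against 2i neither was (0.29 ± 0.14 at each), except at 50 µM with the replicate block (0.0159).

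The subunits of RPA showed no called change in 2i or with dose in the fit without the replicate block. Rpa1, the large DNA-binding subunit, had the smallest spread within groups of the 37 genes and ranged from 224 to 257 CPM over all 12 libraries. Rpa2, the subunit phosphorylated under replication stress, was at 263, 229 and 205 CPM in primed cells and 270.1, 268 and 273 CPM in 2i (0.22 ± 0.11, edgeR adjusted p = 0.115, and 0.0101 with the replicate block). Its call at 50 µM against primed (0.28 ± 0.11, edgeR adjusted p = 0.0447) was lost without primed replicate 2 (0.106) or 3 (0.212), without 50 µM replicate 1 (0.231) or 2 (0.135), and with RLE factors, DESeq2, limma voom or these 2 groups alone, in a range of 0.00211 to 0.231 over the 12 alternatives. Rpa3, the small subunit, was at 31.2, 54.3 and 60.8 CPM in primed cells, 59.4, 91.8 and 55.7 CPM in 2i, 93.3, 88.7 and 31.2 CPM at 25 µM, and 117, 95.02 and 76.9 CPM at 50 µM. Replicate 3 at 25 µM was as low as the lowest primed library, while all 50 µM libraries lay above all primed libraries. The difference of 0.98 ± 0.43 at 50 µM against primed had the largest estimate among the 37 genes in that comparison, with an adjusted p of 0.1 with edgeR, 0.0796 with DESeq2 and 0.0142 with limma voom. No difference of Rpa3 was called with edgeR.

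Chaf1b (ENSMUSG00000022945, chr16:93883901-93906115), the WD-repeat subunit of CAF-1, rose in 2i against primed and at 50 µM against 2i. It was at 49.1, 52.8 and 46.3 CPM in primed cells, 67.3, 64.1 and 71.9 CPM in 2i, 73.6, 70.6 and 78.4 CPM at 25 µM and 89.3, 86.2 and 90.2 CPM at 50 µM. Libraries of 2i and 25 µM overlapped, and the other groups did not overlap with one another. The steps from 2i to 25 µM (0.13 ± 0.09, edgeR adjusted p = 0.576) and from 25 to 50 µM (0.25 ± 0.09, 0.221) were not called. The rise was 1.37-fold in 2i (0.46 ± 0.09, edgeR adjusted p = 0.000457), 1.31-fold more at 50 µM (0.39 ± 0.09, 0.00639) and 1.79-fold at 50 µM against primed (0.84 ± 0.09, 1.99e-07). All 3 were called under all 12 alternatives. Chaf1a, the large PCNA-binding subunit, was at 56.0, 63.0 and 57.0 CPM in primed cells and 80.7, 66.5 and 78.4 CPM at 50 µM (0.36 ± 0.13, edgeR adjusted p = 0.0287). That call was lost without primed replicate 1 (0.0868) or 3 (0.0868), without 50 µM replicate 1 (0.117) or 3 (0.106) and with DESeq2 (adjusted p = 0.0642), in a range of 0.00453 to 0.117 over the alternatives. Its 3′ end overlaps Ubxn6, which changed by 0.19 ± 0.12 in the same comparison (edgeR adjusted p = 0.223). Wdhd1, which tethers polymerase alpha to the helicase, ranged from 23.6 to 42.5 CPM and was called in no comparison; stretches of its 3′ end have near copies in other genes, so it is uncertain.

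The topoisomerases relieve twist ahead of the fork and untangle the daughters. Neither was called in any comparison in the edgeR fit used for the calls above, with TMM factors and no replicate block. Top2a was at 1470.0, 1206 and 1176 CPM in primed cells and 1214, 970.5 and 993 CPM in 2i (−0.28 ± 0.11, edgeR adjusted p = 0.0507, and 0.000664 with the replicate block); primed and 2i libraries overlapped, replicate 1 being the highest in each. It was called there with RLE factors (edgeR adjusted p = 0.044) and with limma voom (adjusted p = 0.0476), and not with DESeq2 (adjusted p = 0.0561). Top1 lay between 629 and 849 CPM.

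Rrm2 (ENSMUSG00000020649, chr12:24708241-24714146), the reductase subunit whose level limits the enzyme in S phase, rose in 2i and again with inhibitor. It was at 154, 169.8 and 182 CPM in primed cells, 211, 206 and 186 CPM in 2i, 261, 229.9 and 213 CPM at 25 µM and 263, 248.5 and 257 CPM at 50 µM. Every inhibitor library lay above every 2i library, and every 2i library above every primed library. The steps were 0.25 ± 0.09 in 2i (edgeR adjusted p = 0.0332) and 0.35 ± 0.09 at 50 µM against 2i (0.013), and 50 µM against primed gave a 1.52-fold rise (0.60 ± 0.09, 1.63e-05), called under all 12 alternatives. The step in 2i was lost without primed replicate 1 (0.135) or 2 (0.0713) and without 2i replicate 1 (0.0859) or 2 (0.0782), and ranged from 0.0067 to 0.135. The 50 µM step was lost without 2i replicate 3 (0.0697) and 50 µM replicate 1 (0.062), and ranged from 0.000668 to 0.0697. Its partner Rrm1 was at 199, 185 and 173 CPM in 2i and 242, 197 and 219 CPM at 50 µM (0.24 ± 0.10, edgeR adjusted p = 0.126, and 0.0147 with the replicate block).

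Dut (ENSMUSG00000027203, chr2:125247190-125258608), which removes dUTP and so makes the precursor of thymidylate, rose in 2i from 369.6, 376 and 391 to 465, 512 and 531 CPM, without overlap. The rise of 1.33-fold (0.41 ± 0.08, edgeR adjusted p = 0.000308) was called under all 12 alternatives. Dut stayed at that level with inhibitor, at 534, 524.5 and 504 CPM and at 535, 493 and 521.5 CPM (0.04 ± 0.08 at 50 µM against 2i).

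Tyms, which makes thymidylate, was at 108, 106 and 106 CPM in 2i and 86.0, 84.3 and 98.6 CPM at 50 µM, without overlap. That difference of −0.25 ± 0.09 had an edgeR adjusted p of 0.0792, and 0.0196 with the replicate block, where its sign was opposite to that of Rrm2. Tyms in 2i against primed (0.19 ± 0.09) was called with the block alone (0.0429). Tk1, the thymidine salvage kinase, lay between 133.5 and 192 CPM and was called in no comparison without the block.

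**Figure D4:**
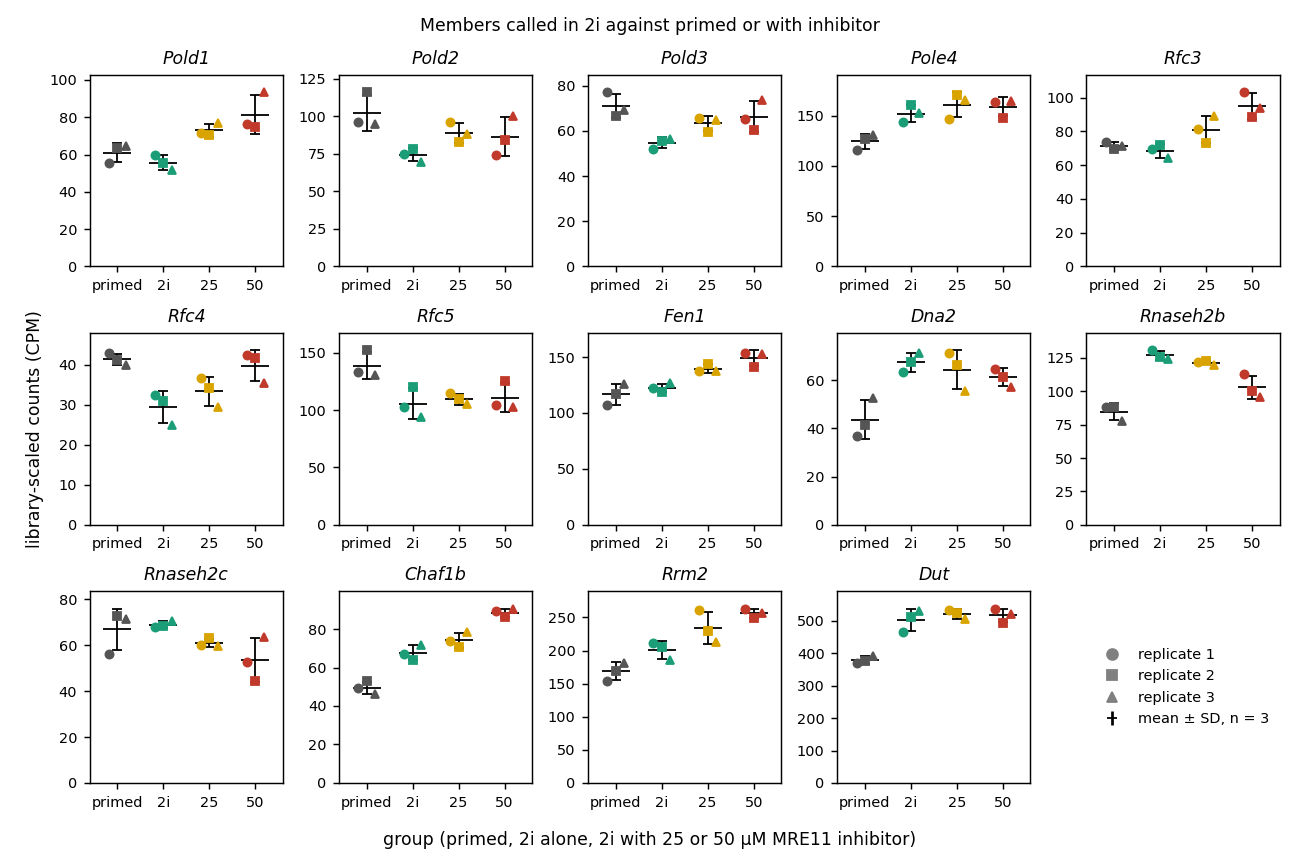
CPM (y axis, from 0) in each library for the 14 genes called in 2i against primed, at 50 µM against 2i or in the dose trend, by group (x axis: primed, 2i, 2i with 25 or 50 µM inhibitor); symbols mark replicate numbers and bars the mean ± SD of n = 3. Rnaseh2b is highest in 2i, Pold1, Rfc3, Fen1, Chaf1b and Rrm2 are highest at 50 µM, and Pold2 and Rfc5 are highest in primed cells.

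Against primed cells, the share of the 37 genes called was below that of all genes at 25 µM and near it at 50 µM. More of the calls were higher than lower at both doses. At 25 µM 11 were higher and 2 lower (35.1%, against 42.3% of all genes, 21.3% higher and 21.0% lower), and at 50 µM 15 were higher and 2 lower (45.9%, against 44.3% of all genes). Higher calls at 50 µM made up 40.5% of the 37, against 22.6% of all genes, and lower calls 5.41%, against 21.7%. The median change at 50 µM was 0.18, against 0.03 over all genes. Of the 17 calls at 50 µM, 9 held under all 12 alternatives: Pold1, Pole4, Rfc3, Fen1, Lig1, Dna2, Chaf1b, Rrm2 and Dut. At 25 µM 8 of 13 did: Pole4, Rfc2, Lig1, Dna2, Rnaseh2b, Chaf1b, Rrm2 and Dut. Rfc5 was lower at both doses, Rfc4 at 25 µM only and Rnaseh2c at 50 µM only, and a difference between the doses was not called for any of them. The count was 11 at 50 µM without 50 µM replicate 1, where 40.3% of all genes were called. It was 8 at 25 µM without primed replicate 2, where 36.5% of all genes were. These comparisons share the primed libraries with one another and with the 2i comparison.

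The same fit was read for other genes of the pathway. Of 27 origin licensing and helicase genes, which act before and at the opening of the origin, 8 were higher and 1 lower in 2i, 3 were higher at 25 µM, and 6 were higher and 1 lower at 50 µM against 2i. Over all genes 20.0% were higher and 20.4% lower in 2i, 0.937% were called at 25 µM, and 7.01% were higher and 8.07% lower at 50 µM, which also stand beside the counts of the lists that follow. With the replicate block the licensing counts were 8 higher and 1 lower at 25 µM and 11 higher and 2 lower at 50 µM. At 50 µM these included Gins2 (0.72 ± 0.09), Cdt1 (0.71 ± 0.08) and Mcm5 (0.49 ± 0.09). The 3 genes called at 25 µM were the same, with 0.45 ± 0.09, 0.50 ± 0.08 and 0.39 ± 0.09. Of 17 measured fork partners, 4 were higher and 3 lower in 2i, 2 were higher at 25 µM and 5 at 50 µM, among them Uhrf1 (0.61 ± 0.09), Timeless (0.60 ± 0.10) and Tonsl (0.44 ± 0.13). Pclaf, a PCNA-binding protein, was the fork partner with the smallest p in 2i against primed (−1.03 ± 0.13).

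Of 23 measured genes of other nucleotide metabolism, 2 were higher and 10 lower in 2i, where Rrm2 and Dut were higher. The lower ones included Mthfd2 (−0.92 ± 0.12) and Shmt2 (−0.71 ± 0.12), enzymes of mitochondrial folate metabolism, and Nme1 (−0.53 ± 0.08), a nucleoside diphosphate kinase. Without the replicate block only Mthfd2 was called at 50 µM against 2i (−0.64 ± 0.12), and with it 4 genes of this list were higher and 3 lower. Of 24 G1/S regulators, 7 were higher and 7 lower in 2i, and 5 were higher and 2 lower at 50 µM (7 and 4 with the replicate block). The E2F family members E2f8 and E2f2 were higher at 50 µM than in 2i (1.12 ± 0.15 and 1.00 ± 0.18), while cyclin E1 (Ccne1) was lower (−0.52 ± 0.09). In 2i against primed, E2f8 (−1.30 ± 0.15) and Ccne1 (−0.83 ± 0.09) were lower and the CDK inhibitor Cdkn1a was higher (2.00 ± 0.13). Of 22 G2/M genes 4 were lower and none higher in 2i (7 lower and 1 higher with the replicate block). At 50 µM against 2i Hmmr was the only one called without the block (−0.40 ± 0.11), and with it 3 were higher and 2 lower. Shares of all genes called with the block were 47.6% in 2i, 4.74% at 25 µM and 24.5% at 50 µM.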

How the data were processed

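RNA of 12 libraries was made into QuantSeq 3′ mRNA-seq (FWD) libraries, per the labels' protocols, so reads come from 3′ ends. The authors deposited raw counts per gene; the submitters' processing notes name GRCm38, FastQC, STAR and DESeq2 1.32.0. For the counting tool, its strand setting, the annotation release and unique molecular identifiers, nothing was given in the sources used here. Each table held 56805 features, of which 114 spike-in features (2 counts in all) were dropped. The series-wide table repeated the same values and was not used; 0 columns were left unmapped.

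Groups came from the titles. edgeR 4.0.16 (R 4.3.3; TMM, filterByExpr, quasi-likelihood F test, robust, 12 libraries in 1 fit) tested 13230 genes with Benjamini-Hochberg adjustment and no fold minimum. The dose trend used the 9 six-day libraries and dose as a number. The SE is the log2 fold change divided by the square root of F. The script was checked on simulated counts. The 37 genes and the other lists were chosen with earlier results of these data known. Values per library are given for every gene called in 2i against primed, between doses, or in the trend; at most 3 genes of each other list are named per comparison.

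Alternatives were no low-count filter, RLE factors, DESeq2 1.42.0, limma voom 3.58.1, the compared groups only, a log2 minimum of 0.5, the replicate number as a block, and leaving out each library. The numbers pair the six-day groups (correlations of same-numbered deviations 0.142 to 0.366) and primed with 2i (0.11 to 0.278), each over a minimum of 0.1. They do not pair primed with 25 µM (lowest 0.0034) or 50 µM (0.0652). Promoter sequences are RefSeq's, GRCm38.p6, and gene positions those of the GRCm38 annotation. Uncertain genes were sought by overlap and by copies of the last 400 bases (at least 150 aligned bases at 95% identity).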

Additional observations from a re-analysis of the deposited data

How the results depend on the processing

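For a log2 minimum of 0.5 the share of all genes was not counted. With it, the calls among the 37 genes fell to 2 in 2i against primed and 1 at 50 µM against 2i. Against primed they fell to 5 at 25 µM and 4 at 50 µM. With the replicate block they were 16 in 2i against primed, 1 at 25 µM and 16 at 50 µM against 2i, and 16 in the dose trend; it ended no call and changed no other call in the paired comparisons. Against primed, where the numbers do not pair the libraries, the block gave 18 calls at 25 µM and 23 at 50 µM, in fits that called 49.5% and 51.3% of all genes. Without the low-count filter 2 of the 37 genes were called at 25 µM against 2i, where 0.971% of all genes were. Leaving out each library in turn gave 8 to 11 calls in 2i against primed. There 34.0% to 37.0% of all genes were called, against 40.4% with all libraries. At 50 µM against 2i it gave 3 to 9 calls. There 1217 of 13529 to 1668 of 13546 genes were called, against 1994 of 13230 with all libraries. The trend had 4 to 10, with 9.17% to 15.7% of all genes, against 15.5%. Relative to primed there were 8 to 12 at 25 µM, with 36.3% to 39.1% of all genes, against 42.3%. At 50 µM there were 11 to 16, with 37.9% to 40.5%, against 44.3%. At 25 µM against 2i there were 0, with 0.214% to 0.746% of all genes, against 0.937%. Between the doses there were 0, with 0.279% to 1.50%, against 1.16%. Under all other alternatives the counts stayed within 1.5 times. For the 56 calls of a gene in a comparison, no alternative changed the sign; 584 of their values under an alternative kept the call and 104 did not. The median change over all genes moved by less than 0.1 under every scaling. Depth limits Pold4, with 8 to 20 counts per library.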

Other observations

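In all 4 groups replicate 1 was the highest of the 3 libraries for 8 of the 37 genes: Pola1, Pole3, Rfc1, Rfc4, Lig1, Wdhd1, Top2a and Rrm1. That is 21.6% of them, against 7.75% of the 13230 genes tested. Replicate 2 was highest in all groups for Tk1 alone and replicate 3 for Pole alone (2.70% each, against 2.62% and 2.65% of all genes). The labels do not say what a replicate number stands for.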
